A study of Mus musculus with 4 samples.

Results

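H3K27me3 at 9 genes of the lymphoid programme was examined in erythro-myeloid progenitors (EMPs), the yolk sac progenitors of erythroid and myeloid cells. The genes were Rag1, Rag2, Dntt, Bcl11a, Bcl11b, Cd3d, Cd3e, Cd3g and Cd79a, 9 of 21951 protein-coding genes, chosen by name, with earlier results of these data known. All table rows that named 1 of these genes were taken, together with all peaks in the gene or within 10 kb of it, and genes without a peak were kept. This gave 12 of 10223 peaks in the library from 500 EMPs and 20 of 15282 peaks in the library from 15000 EMPs. EMPs came from C57BL/6 yolk sacs at E10.5, and the gate in the study keeps KIT+, CD41+ and CD16/32+ cells after lineage-positive and SCA1+ cells are left out. Antibodies to CD3e, B220 and IL-7R are among those listed for flow cytometry, and which of them made up the lineage cocktail is not stated in the sources used here. H3K27me3 was profiled by CUT&RUN, in which an antibody directs a nuclease to the mark and the released DNA is sequenced. An IgG library, made with a non-specific antibody, stood beside each H3K27me3 library, so that the series had 4 libraries in 4 groups. All 4 libraries carry the same genotype label, Ezh2fl/fl and Tie2-Cre+/+ followed by the words wild type, and the study describes the cells as wild type. Tie2-Cre acts in endothelial and blood cells, the genotype label does not settle whether Cre was present, and no Ezh2-deleted library was analysed here.

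The files gave the positions of peaks, with no height, so a peak was present or absent. Each group had 1 library, so there was no spread between replicates, no test was possible, and every difference below is a difference between 2 libraries. The 500-EMP libraries had 17 PCR cycles and 76 bp reads and the 15000-EMP libraries 16 cycles and 59 bp reads, on different instruments. The study's methods also give a stricter peak-calling threshold for 500 EMPs, and its reporting summary gives fewer reads and a lower alignment rate. Cell number therefore cannot be told apart from these settings. In the reporting summary, though not in the methods, the command listed for each cell number names the libraries of the other cell number. The threshold behind each list is therefore uncertain, and the cell numbers of the labels were kept. Peaks were 363 bp wide at the median with 500 EMPs and 770 bp with 15000 EMPs. The smallest width in the 500-EMP list, 137 bp, was held by 1759 peaks (17.2%), and that of the 15000-EMP list, 171 bp, by 388 peaks (2.54%).

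H3K27me3 is placed by Ezh2 and its partners in Polycomb repressive complex 2, and it is found at genes that are held silent, often as broad domains over the CpG-rich starts of developmental regulators. Lymphocytes assemble antigen receptor genes by V(D)J recombination, which is cut by the Rag proteins and varied by the polymerase encoded by Dntt. Bcl11b is a zinc finger factor of T cell commitment, Bcl11a its relative in B cell and early lymphoid development, the Cd3 genes encode signalling chains of the T cell receptor, and Cd79a encodes one of the B cell receptor. A silent gene need not carry H3K27me3, so a gene without a peak is not shown to be active.

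The peaks fell at Bcl11b in both libraries, at the Cd3 genes mainly with 15000 EMPs, and upstream of Bcl11a, and none was found near Rag1, Rag2, Dntt or Cd79a. A gene was counted when at least 1 bp of a peak lay in it or within 10 kb. In the 500-EMP library 3 of 9 genes had a peak (33.3%), Bcl11b, Cd3d and Cd3g, where 15% of all protein-coding genes did. In the 15000-EMP library 5 of 9 had one (55.6%), the same 3 genes with Bcl11a and Cd3e, where the share of all protein-coding genes was 25%. Both counts stood above those shares. They did not when peaks had to overlap one of the other library, which left Bcl11b alone, 1 of 9 genes (11.1%) in each library beside 14% and 14.4% of all genes. With 500 EMPs they did not either with an overlap of at least 200 bp or without peaks of the smallest width, where 1 of 9 genes stood beside 12.5% and 13.4%. The Cd3 genes lie side by side and share peaks, as Rag1 and Rag2 share their surroundings, so the 9 genes are not 9 separate cases. Within 3 kb of the gene start, 3 genes had a peak in each library. They were Bcl11b, Cd3d and Cd3g with 500 EMPs, beside 9.92% of all genes, and Bcl11b, Cd3e and Cd3g with 15000 EMPs, beside 17%.

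The sequences below are those of the mouse reference (RefSeq, GRCm38.p6), read 5′ to 3′, with each CpG, the letters CG, in capitals, because the starts of these genes differed in CpG content. The first 3 are the 250 bases before the gene start in GENCODE. Bcl11b (chr12:108003603-108003852, minus strand), which carried the mark in both libraries, had 9 CpGs there. Bcl11a (chr11:24077806-24078055, plus strand), which had peaks only farther upstream, had 11. Rag2 (chr2:101624468-101624717, plus strand), with no peak, had 3. Among 21931 protein-coding genes 92.4% had at least 1 CpG in this window, with a median of 8, 48.9% had at least as many as Bcl11b, 43.2% as many as Bcl11a, and 75.4% as many as Rag2.
Bcl11b: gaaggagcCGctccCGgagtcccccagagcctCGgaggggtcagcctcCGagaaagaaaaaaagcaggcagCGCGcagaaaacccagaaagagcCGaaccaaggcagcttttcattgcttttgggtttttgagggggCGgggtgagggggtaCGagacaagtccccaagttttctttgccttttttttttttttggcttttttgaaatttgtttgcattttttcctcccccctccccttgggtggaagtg
Bcl11a: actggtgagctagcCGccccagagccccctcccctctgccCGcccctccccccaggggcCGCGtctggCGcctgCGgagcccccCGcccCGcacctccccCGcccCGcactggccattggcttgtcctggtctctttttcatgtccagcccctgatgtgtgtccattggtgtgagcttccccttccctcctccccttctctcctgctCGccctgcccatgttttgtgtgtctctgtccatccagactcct
Rag2: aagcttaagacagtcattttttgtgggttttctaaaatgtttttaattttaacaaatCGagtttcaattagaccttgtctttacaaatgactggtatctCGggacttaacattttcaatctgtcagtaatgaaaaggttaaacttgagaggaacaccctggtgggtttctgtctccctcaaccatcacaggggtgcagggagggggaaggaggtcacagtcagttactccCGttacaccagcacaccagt

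The next 4 sequences, on the plus strand, are short peaks at the 3 loci that had any, shown to give the sequence under the mark. They are single peaks and do not stand for the loci, whose medians are given below with each gene. The narrowest peak in the Bcl11b intron in the 500-EMP library (chr12:107980567-107980722) held 14 CpGs in 156 bp. Of the 392 peaks of that list within 10 bp of this width, 1.79% held at least as many. The 137-bp peak of the same library between Cd3g and Cd3d (chr9:44981453-44981589) held 0, whereas 78.6% of 1952 peaks of like width held at least 1. In the 15000-EMP library, the 256-bp peak nearest to Bcl11a (chr11:24074082-24074337) held 8 CpGs, and 12.4% of 380 peaks of like width held at least as many. The 171-bp peak upstream of Cd3e (chr9:45011110-45011280) held 3, and 36.5% of 636 peaks of like width held at least as many.
Bcl11b intron peak: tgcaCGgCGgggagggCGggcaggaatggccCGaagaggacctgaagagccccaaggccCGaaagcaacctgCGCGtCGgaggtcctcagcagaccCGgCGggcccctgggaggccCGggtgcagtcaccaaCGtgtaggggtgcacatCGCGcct
Cd3g-Cd3d peak: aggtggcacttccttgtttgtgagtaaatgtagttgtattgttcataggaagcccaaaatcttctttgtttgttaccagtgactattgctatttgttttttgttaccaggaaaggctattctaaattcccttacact
Bcl11a upstream peak: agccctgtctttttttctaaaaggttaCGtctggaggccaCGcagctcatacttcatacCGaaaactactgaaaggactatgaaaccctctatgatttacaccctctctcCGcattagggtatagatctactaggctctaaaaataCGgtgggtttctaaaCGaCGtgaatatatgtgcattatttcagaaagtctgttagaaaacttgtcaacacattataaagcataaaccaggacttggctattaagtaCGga
Cd3e upstream peak: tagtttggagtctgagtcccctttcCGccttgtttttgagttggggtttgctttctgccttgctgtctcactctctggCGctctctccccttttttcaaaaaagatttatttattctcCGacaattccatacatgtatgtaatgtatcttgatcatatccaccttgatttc

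For the recombination genes the question was whether the genes of V(D)J recombination carry H3K27me3 in EMPs. Rag1 (ENSMUSG00000061311, chr2:101638282-101649501, minus strand, 11220 bp), which cuts DNA at recombination signals, was free of peaks over its whole length and 10 kb to either side, in both libraries. The peak nearest to it lay 556495 bp away with 500 EMPs and 555752 bp away with 15000 EMPs. Rag2 (ENSMUSG00000032864, chr2:101624718-101632529, plus strand, 7812 bp), its partner in the recombinase, had no peak either. The same peaks were nearest to it, at 573467 bp and 572724 bp. They were 152 bp and 1511 bp wide, and the coding gene nearest to them was Ldlrad3, 19611 bp and 18868 bp away. Of the 9 genes, Rag1 and Rag2 lay farthest from any called H3K27me3 in both libraries.

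Dntt (ENSMUSG00000025014, chr19:41029275-41059525, plus strand, 30251 bp), which adds untemplated bases at junctions, had no peak within 10 kb in either library. The nearest 500-EMP peak, 137 bp wide and inside Tll2, lay 145808 bp away, and the nearest 15000-EMP peak, 355 bp wide, lay 145045 bp away. The 3 recombination genes were alike in their starts too. In the 300 bases from 250 before to 50 after the gene start, Rag1 had 2 CpGs, Rag2 had 3 and Dntt had 2. The median over all protein-coding genes was 11.

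The end-joining proteins that complete recombination also repair breaks in other cells, and the HMGB proteins assist the cut by the Rag proteins. Among 9 genes of these groups, none had a peak with 500 EMPs and 3 had one with 15000 EMPs (33.3%, beside 25% of all genes). They were Xrcc6, which encodes a Ku subunit that binds broken ends, with 375 bp under peaks, Dclre1c, the Artemis nuclease, with 265 bp, and Nhej1, a ligation factor, with 870 bp. None of the 3 had a peak within 3 kb of its start. Lig4, Xrcc4, Xrcc5, Prkdc, Hmgb1 and Hmgb2 had no peak in either library.

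Bcl11b (ENSMUSG00000048251, chr12:107910403-108003602, minus strand, 93200 bp) carried the longest stretch of H3K27me3 among the 9 genes in both libraries. It had 9 peaks covering 4308 bp with 500 EMPs and 10 peaks covering 14893 bp with 15000 EMPs, within 10 kb of the gene. In the gene itself lay 7 peaks with 3787 bp and 8 peaks with 11237 bp. Peaks were 156 to 1200 bp wide with 500 EMPs and 229 to 3800 bp wide with 15000 EMPs. Within 3 kb of the start, a window of 6001 bp, 1877 bp and 5157 bp were covered. Among the protein-coding genes with a peak, the covered length of Bcl11b stood at the 88.3 percentile of 3303 genes with 500 EMPs and the 93.8 percentile of 5482 genes with 15000 EMPs, where the medians were 870 bp and 3146 bp. Bcl11b is a long gene, and of genes of at least 50 kb 22.7% and 37.6% had a peak in the 2 libraries, against 12.6% and 20.8% of genes under 20 kb.

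The peaks of Bcl11b were split at the widest gap in each library, a rule that always gives 2 blocks. The blocks of the 2 libraries overlapped. The first lay over the start of the gene. With 500 EMPs it had 6 peaks from -3144 to 4063 bp relative to the start, negative being upstream, (chr12:107999539-108006746), which covered 2361 bp, 32.8% of the span. With 15000 EMPs it had 7 peaks from -4537 to 7622 bp (chr12:107995980-108008139), which covered 9327 bp, 76.7% of the span. The start itself was crossed by 1 peak of the 15000-EMP library, 472 bp wide, and by none of the 500-EMP library, whose nearest peak, 202 bp wide, began 73 bp inside the first exon. This difference rests on the GENCODE start: the RefSeq start, 188 bp away, lay inside that 500-EMP peak.

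The other block lay in intron 2, between exon 2 at chr12:107989465-107989830 and exon 3 at chr12:107965672-107965887. With 500 EMPs it had 3 peaks from 22880 to 25935 bp downstream of the start, which covered 1947 bp, 63.7% of the span. With 15000 EMPs it had 3 peaks from 21695 to 27941 bp, which covered 5566 bp, 89.1% of the span. Between the blocks, 18816 bp with 500 EMPs and 14072 bp with 15000 EMPs held no peak. The last 2 exons, exon 3 and exon 4 at chr12:107910403-107917414, had no peak in either library. All 9 peaks of the 500-EMP library at Bcl11b overlapped a 15000-EMP peak, beside 91.2% of all 500-EMP peaks, and 4222 of 4308 bp were shared (98%). In the other direction 5 of 10 peaks (50%) overlapped, beside 32.2% of all 15000-EMP peaks, and 28.3% of the covered length was shared. The shared length over all peaks was not taken.

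**Figure D1:**
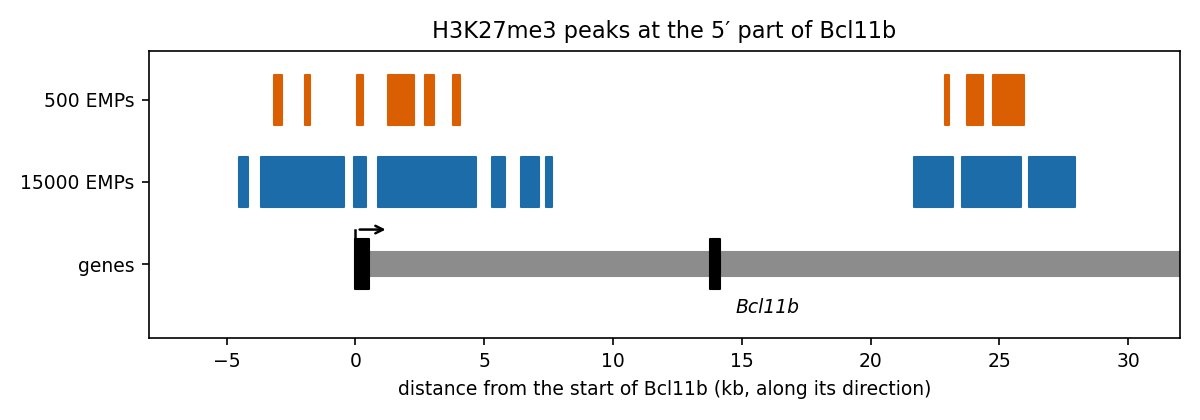
H3K27me3 peaks at the first part of Bcl11b, by distance from its start in kb along the direction of the gene (x axis), with a row for the library from 500 EMPs (orange), a row for that from 15000 EMPs (blue) and the gene (grey, exons black, arrow at the start). Each bar is a peak; both libraries show a block over the start and a block in intron 2, and each of the 9 peaks from 500 EMPs overlaps 1 from 15000 EMPs.

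At the GENCODE starts Bcl11b alone among the 9 genes met the CpG-rich criteria used here, a GC content of at least 50% and an observed over expected CpG ratio of at least 0.6 in the 300 bases around the start. It had 13 CpGs, 53% GC and a ratio of 0.619. At the RefSeq starts the call turned round, since Bcl11b had 43% GC with a ratio of 0.652 and missed the GC limit, whereas Bcl11a, with 23 CpGs, 63% GC and a ratio of 0.815, alone met both. Of 21931 protein-coding genes with such a window, 41.3% were CpG-rich. Counted with 10 kb on either side, a peak was found for 18% of CpG-rich and 13% of CpG-poor genes with 500 EMPs, and for 29.2% and 22.1% with 15000 EMPs. The peaks of Bcl11b held a median of 2.88 CpGs per 100 bp with 500 EMPs (0.573 to 8.97) and 2.79 with 15000 EMPs (0.99 to 4.77). The medians over all peaks were 1.49 and 1.62.

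Bcl11a (ENSMUSG00000000861, chr11:24078056-24174123, plus strand, 96068 bp) differed from Bcl11b, although both are long genes of the same family. No peak lay in the gene in either library, and 0 bp were covered within 3 kb of its start. With 500 EMPs there was no peak within 10 kb, and the authors' table assigned to it 2 peaks of 137 bp, the smallest width, the nearer of them 15035 bp upstream. With 15000 EMPs, 2 peaks lay within 10 kb upstream, of 342 bp (chr11:24073165-24073506) and 256 bp (chr11:24074082-24074337), 598 bp in all. The nearer ended 3719 bp before the start. A further pair of 2285 bp (chr11:24059122-24061406) and 1853 bp (chr11:24061698-24063550) lay farther upstream, and the latter contained both 500-EMP peaks.

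All of these peaks lay in an intron of A830031A19Rik (chr11:24048955-24075054), a coding gene that runs away from Bcl11a on the other strand. Its start was the nearer one for every peak, at 717 bp from the closest. The assignment of these peaks to Bcl11a therefore rests on the annotation, and the covered length of 598 bp cannot be given to 1 of the genes alone. The start of Bcl11a had more CpGs than that of Bcl11b, 16 in 300 bases with 65.3% GC, but its observed over expected ratio of 0.555 was below the limit of 0.6. At its RefSeq start, 2639 bp away, it was above both limits, and no peak lay in the 300 bases around that start either. With either start, Bcl11a had more CpGs there than Bcl11b and no peak. The peaks upstream of Bcl11a held a median of 2.19 CpGs per 100 bp with 500 EMPs and of 1.54 with 15000 EMPs, and the 256-bp peak shown above, at 3.12, held the most of the latter.

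**Figure D2:**
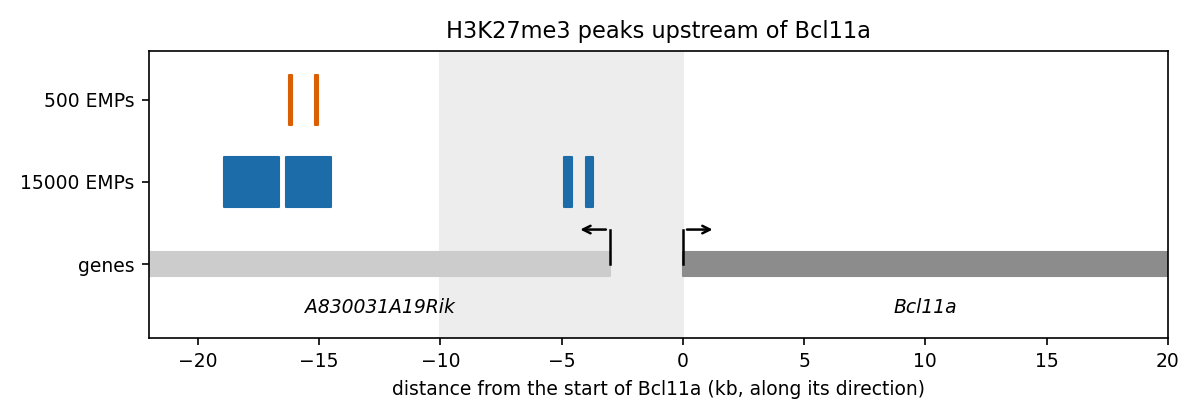
H3K27me3 peaks upstream of Bcl11a, by distance from its start in kb (x axis), with a row for each library (500 EMPs orange, 15000 EMPs blue) and the genes (grey bars, arrows at the starts). The shaded stretch is the 10 kb counted as near the gene, which holds 2 peaks from 15000 EMPs and none from 500 EMPs, all of them over A830031A19Rik on the opposite strand.

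The 3 Cd3 genes lie together on chromosome 9 and encode the chains that pair in the CD3 part of the T cell receptor complex. The 2 libraries had no peak in common there. The 500-EMP library had a single peak there, 137 bp wide (chr9:44981453-44981589), between the divergent genes Cd3g and Cd3d. It lay 197 bp upstream of the start of Cd3d (ENSMUSG00000032094, chr9:44981786-44987339, plus strand) and 1022 bp upstream of that of Cd3g (ENSMUSG00000002033, chr9:44969572-44980431, minus strand). Both genes owe their place in the 500-EMP count to this 1 peak of the smallest width, and without peaks of that width Bcl11b alone remained. Cd3e (ENSMUSG00000032093, chr9:44998740-45009627, minus strand) had no 500-EMP peak within 10 kb, the nearest being the same peak at 17151 bp.

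The 15000-EMP library had 6 peaks at the Cd3 genes, covering 4763 bp, and no peak between Cd3g and Cd3d. Cd3g held 2 of them, of 1288 bp over its exon 4 (chr9:44972669-44973956) and of 1086 bp in its first intron (chr9:44977453-44978538). The authors' table gave the former to Ube4a. Cd3d itself held none and had a peak within 10 kb through the same 2 peaks, 2374 bp. Cd3e had 4 peaks with 2389 bp in all. They measured 893 bp beyond its 3′ end (chr9:44997359-44998251), 206 bp in its last exon, in the 3′ UTR and also in the antisense gene Gm48719 (chr9:44999236-44999441), 1119 bp between exons 4 and 5 of transcript Cd3e-201, in an exon of another annotated transcript (chr9:45003709-45004827), and 171 bp, the smallest width of that list, 1483 bp upstream of its start (chr9:45011110-45011280).

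None of the 6 peaks overlapped the 500-EMP peak, where 32.2% of all 15000-EMP peaks overlapped a 500-EMP peak. Cd3d and Cd3g thus counted in both libraries without a shared base. Their starts were CpG-poor, with 1 CpG in 300 bases at Cd3d, 9 at Cd3e and 4 at Cd3g. The 6 peaks of the 15000-EMP library held a median of 1.2 CpGs per 100 bp (0.829 to 1.75), below the median of all peaks of that list. No peak crossed the start of any of the 3 genes.

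**Figure D3:**
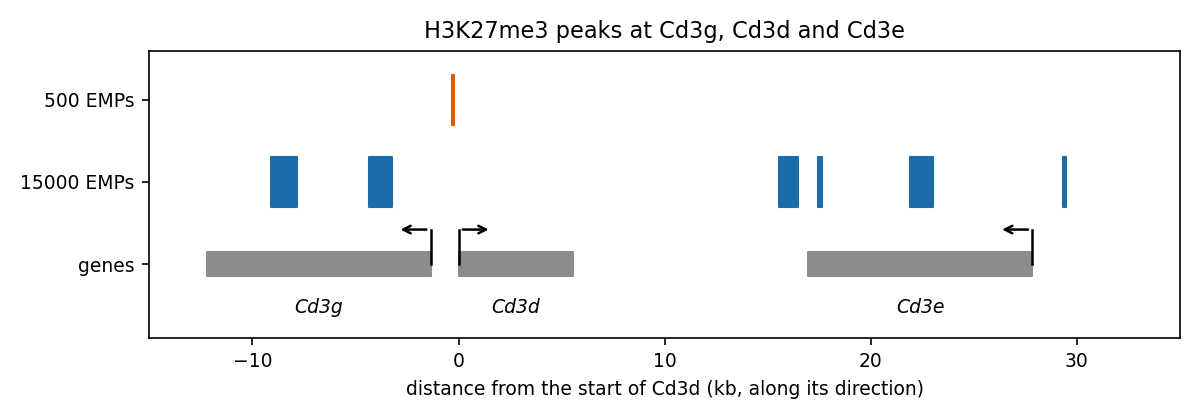
H3K27me3 peaks at the Cd3 genes, by distance from the start of Cd3d in kb (x axis), with a row for each library (500 EMPs orange, 15000 EMPs blue) and the genes (grey bars, arrows at the starts). The 1 peak from 500 EMPs lies between Cd3g and Cd3d, where the 6 peaks from 15000 EMPs leave a gap.

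Cd79a (ENSMUSG00000003379, chr7:24897381-24902197, plus strand, 4817 bp), a signalling chain of the B cell receptor, had no peak within 10 kb in either library. The nearest lay 28547 bp away with 500 EMPs, 1471 bp wide, and 27627 bp away with 15000 EMPs, 5635 bp wide. Both were at Gm4881. Of the 4 genes without a peak it was the one closest to called H3K27me3. Its start had 7 CpGs in 300 bases, with 57.3% GC and an observed over expected ratio of 0.284.

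**Figure D4:**
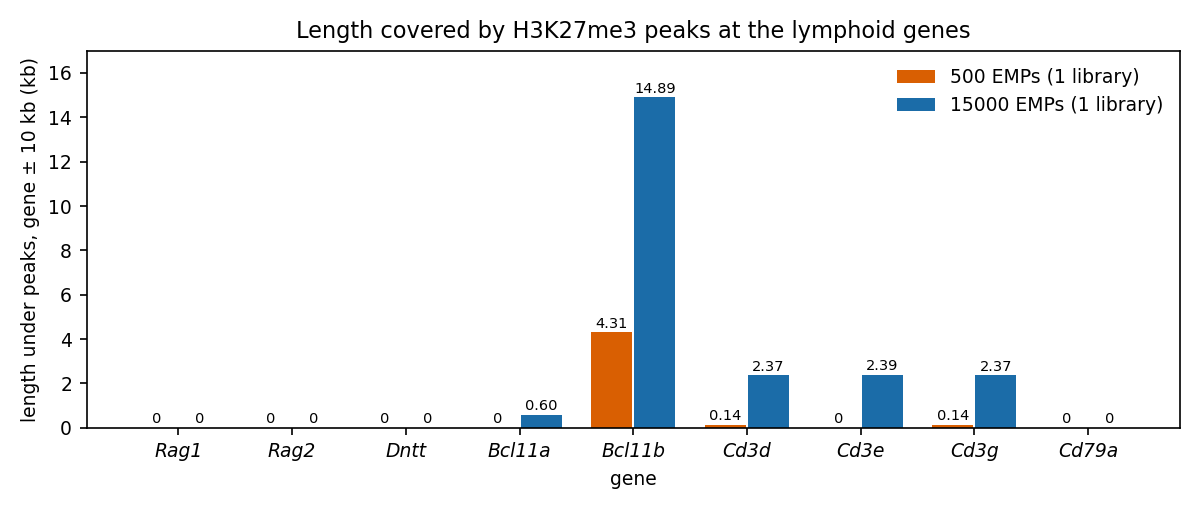
Length under H3K27me3 peaks in each of the 9 genes and 10 kb on either side, in kb (y axis), by gene (x axis), in the library from 500 EMPs (orange) and that from 15000 EMPs (blue), 1 library each and hence without error bars. Bcl11b had 4308 bp and 14893 bp, whereas Rag1, Rag2, Dntt and Cd79a had none; Cd3d and Cd3g show the same peaks.

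Over the 9 genes, peaks in the gene or within 10 kb numbered 10 with 500 EMPs and 18 with 15000 EMPs and covered 4445 bp and 20254 bp. With the rows that the authors' tables gave to a member at greater distance, the numbers were 12 and 20. Their median widths were 250 bp and 990 bp. Of the 12 peaks from 500 EMPs, 11 overlapped a 15000-EMP peak (91.7%), as did 91.2% of all peaks of that list. Of the 20 peaks from 15000 EMPs, 6 overlapped a 500-EMP peak (30%), beside 32.2% of all. These shares at the 9 genes were close to those of the lists as wholes.

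A wider set of 71 other lymphoid genes had peaks mostly at transcription factors and few at the receptor genes of T and B cells. Of the 71 genes, 15 had a peak with 500 EMPs (21.1%, beside 15% of all genes) and 26 with 15000 EMPs (36.6%, beside 25%). All 15 were among the 26. Of 26 transcription factors, 12 had a peak with 500 EMPs (46.2%) and 18 with 15000 EMPs (69.2%). Within 3 kb of the start, 10 (38.5%) and 16 (61.5%) of these factors had a peak, beside 9.92% and 17% of all genes. No share over transcription factors in general was taken, so these values do not set lymphoid factors apart from others.

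**Figure D5:**
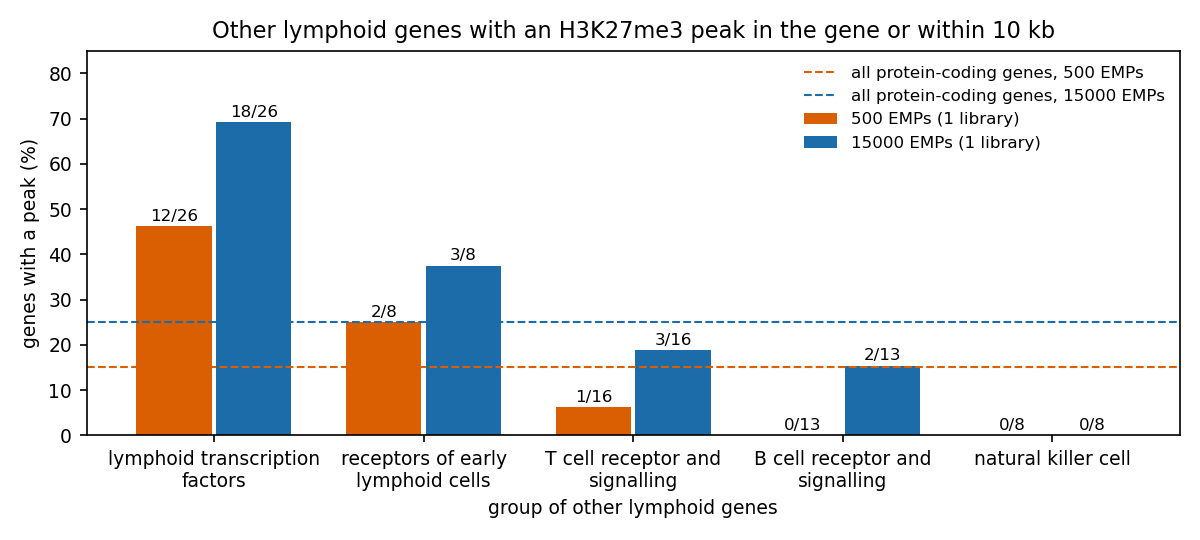
Share of other lymphoid genes with an H3K27me3 peak in the gene or within 10 kb, in percent (y axis), for 5 groups of genes by role (x axis), in the libraries from 500 EMPs (orange) and 15000 EMPs (blue), with the number of genes over each bar. Dashed lines give the shares of all protein-coding genes, 15% and 25%; transcription factors stand at 46.2% and 69.2%, and natural killer cell genes at 0.

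Among the factors with peaks in both libraries were several of T cells and related innate cells. Lef1, a partner of β-catenin in T cell development, had 8032 bp with 500 EMPs and 28056 bp with 15000 EMPs. Gata3, needed for T cell specification, had 6757 bp and 22625 bp. Runx3, a factor of CD8 T cells, had 1672 bp and 12284 bp, none of it within 3 kb of the start. Tbx21, the T-bet factor, had 869 bp and 10852 bp, and Eomes, its relative in killer cells, had 7790 bp and 15067 bp.

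The B cell factors Pax5 and Ebf1 also had peaks in both libraries. Pax5, the factor of B cell commitment, had 13734 bp with 500 EMPs and 27611 bp with 15000 EMPs. Ebf1, which acts before it, had 772 bp and 7754 bp. Irf4, of plasma cells and activated lymphocytes, had 3006 bp and 5382 bp, and Ikzf3, an Ikaros relative, had 3748 bp and 10113 bp. The inhibitors of E proteins Id2 and Id3 had 531 bp and 2551 bp with 500 EMPs, and 7788 bp and 9080 bp with 15000 EMPs.

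A further 6 factors had peaks with 15000 EMPs alone. These were Tcf7, the early T cell factor, with 3755 bp, Spib with 3906 bp, Prdm1, of plasma cells, with 3148 bp, Nfil3 with 1345 bp, Foxo1 with 543 bp and Zbtb16, of innate-like T cells, with 502 bp. The 8 factors without a peak in either library were Ikzf1, Tcf3, Tcf12, Sox4, Pou2af1, Tox, Satb1 and Zbtb7b. Ikzf1, the Ikaros gene, and the E protein genes Tcf3 and Tcf12 also have known roles in other blood cells. Whether this relates to the lack of peaks was not tested.

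The T, B and natural killer cell genes of this set, which leaves out the Cd3 genes, stood below the shares of all genes in both libraries. Their starts were nearly all CpG-poor (16 of 16, 12 of 13 and 8 of 8), and of all CpG-poor genes 13% and 22.1% had a peak. With groups of 8 to 16 genes, 1 gene moves a share by several percentage points. Receptors of early lymphoid cells stood above the shares of all genes. Of 8 such receptor genes, 2 had a peak with 500 EMPs (25%) and 3 with 15000 EMPs (37.5%). Flt3, a cytokine receptor of early progenitors, had 349 bp and 5174 bp, Ccr9, a homing receptor, 604 bp and 6954 bp, and Ccr7 had 229 bp with 15000 EMPs alone. Il7r, Notch1, Il2rg, Il2ra and Cxcr5 had none. Of 16 T cell genes, 1 (6.25%) and 3 (18.8%) had a peak, none of them within 3 kb of the start. With the 3 Cd3 genes added, a count made after the values were seen, 3 of 19 (15.8%) and 6 of 19 (31.6%) had one, beside 15% and 25% of all genes. Of the 3 genes with 500 EMPs, Cd3d and Cd3g counted through the 1 peak of the smallest width. Cd2, an adhesion receptor, had 286 bp and 634 bp, and Cd4 and Cd6 had 3010 bp and 4813 bp with 15000 EMPs alone. The zeta chain gene Cd247 and the pre-T cell receptor gene Ptcra had none, unlike the Cd3 genes with 15000 EMPs.

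Of 13 B cell genes, none had a peak with 500 EMPs and 2 had one with 15000 EMPs (15.4%), Vpreb3 with 294 bp and Cd72 with 2026 bp. Cd79b, whose product pairs with that of Cd79a, had none, as did Ms4a1, Blnk and Btk. None of 8 natural killer cell genes had a peak in either library. With no replicates and few genes in each group, the differences between the groups were not tested. Of the 71 genes, 13 had CpG-rich starts, 10 of them transcription factors, so role and CpG content were tied in this set. Of the 16 CpG-poor factors, 9 had a peak with 500 EMPs and 11 with 15000 EMPs, and of the 10 CpG-rich factors, 3 and 7. Of all CpG-poor genes 13% and 22.1% had one, and of all CpG-rich genes 18% and 29.2%.

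The lineages that EMPs do form gave a comparison, to be read against the 15% and 25% of all protein-coding genes with a peak. Of 15 myeloid genes, none had a peak with 500 EMPs and 2 had one with 15000 EMPs (13.3%), the factors Cebpa with 1381 bp and Irf8 with 2163 bp. Of 15 erythroid genes, 4 had a peak with 500 EMPs (26.7%) and 6 with 15000 EMPs (40%), of which 2 were shared. The shared ones were Ank1, a membrane skeleton gene, with 4663 bp and 20571 bp, and Hba-a1, an alpha globin gene, with 137 bp and 8307 bp. With 500 EMPs alone, the factor Nfe2 had 283 bp and the heme gene Alas2 had 137 bp. Hba-a1 and Alas2 thus counted in that library through 137 bp each, its smallest peak width. With 15000 EMPs alone, the anion exchanger Slc4a1 had 3577 bp, the factor Klf1 2007 bp, Epor 246 bp and Tfrc 184 bp. Hba-a1 has a near-identical copy, so the peaks there are uncertain. Within 3 kb of the start, 1 (6.67%) and 3 (20%) of the 15 erythroid genes had a peak, beside 9.92% and 17% of all genes.

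Peak positions do not measure expression, so they check the identity of the cells only in part. Of 7 genes of the EMP sort and of blood progenitors, 1 had a peak in each library (14.3%), beside 15% and 25% of all genes. With 500 EMPs this was close to the share of all genes. Kit, Itga2b, Fcgr2b, Ptprc, Runx1 and Myb had no peak in either library. Fcgr3 had 1060 bp and 2869 bp under peaks, none of them within 3 kb of its start. Peaks were found at 4 of 10 endothelial genes with 500 EMPs (40%, beside 15% of all genes) and at 6 with 15000 EMPs (60%, beside 25%), led by Nr2f2 with 18389 bp and 30434 bp and Sox17 with 5661 bp and 16608 bp. Pecam1 had 137 bp, the smallest peak width, with 500 EMPs alone. Flt4 had 843 bp and 4548 bp, and Sox18, Gja5 and Kdr had 2790 bp, 351 bp and 274 bp with 15000 EMPs alone. Cdh5, Tek and Emcn had no peak in either library. The gate on KIT, CD41 and CD16/32, without lineage-positive and SCA1+ cells, is the study's definition of EMPs. Which antibodies made up the lineage cocktail is not stated in the sources used here. How pure these sorted cells were was not tested.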

How the data were processed

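H3K27me3 CUT&RUN peaks of 2 libraries, from 500 and 15000 EMPs, were analysed, with groups taken from the labels. The deposited values were peak positions (chromosome, start and end) and a table pairing peaks with genes and distances. Per the labels and the study's methods, the authors aligned reads to mm10 (GRCm38) with Bowtie2 2.2.1, called broad peaks for each H3K27me3 library against its IgG library with MACS2 2.1.2, and annotated them with ChIPpeakAnno. SAMtools 1.9 and deepTools 3.5.1 are also in the submitters' processing notes. The files hold no score, p-value or count per peak, so read depth was unknown from them, a stricter threshold or lower depth gives fewer and narrower peaks, and no interval for a peak could be given.

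Peaks were set against GENCODE vM21 genes, 1-based, with 1 bp as the minimum overlap and 10 kb on either side of the gene. In 0 cases did a peak run past a chromosome end. The shares of all 21951 protein-coding genes gave the background. Sequences came from RefSeq GRCm38.p6 by coordinates. CpG content used 250 bases before to 50 after the GENCODE start, since a table of RefSeq promoters covered too few genes. Code (Python 3.11.15, pysam 0.24.0) was tested on simulated peaks. The alternatives were other windows (gene body, 3 kb and 25 kb around the gene, 3 kb and 10 kb around its start), a 200-bp overlap, leaving out peaks of the smallest width, peaks shared by both libraries, and the authors' gene assignments within 3 kb and 10 kb. All 9 genes were to be named, and of the other lists every gene with a peak, up to a fixed number, except that single values of some genes in the lists are not reported here. Genes without a peak were named as well for the transcription factors and where the text singles them out. The 9 genes, the lists and the tests were chosen with earlier results of these data known. All 136 genes of the lists were found in GENCODE. IgG libraries entered only through the peak calls.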

Additional observations from a re-analysis of the deposited data

How the results depend on the processing

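Of 76 alternative values for 8 results, 56 were taken as unchanged and 20 moved. A count or length was unchanged within 1.5 times the reported value, so that 7 peaks in place of 10 or 4 genes in place of 5 passed, and a share within its own 95% Wilson interval. The number of the 9 genes with a peak in the 500-EMP library, 3, was 1 (11.1%) in the gene body alone, with at least 200 bp of overlap, without peaks of the smallest width, and with peaks overlapping the other library, beside 10.4%, 12.5%, 13.4% and 14% of all protein-coding genes, and 5 within 25 kb of the gene, beside 20%. In the 15000-EMP library, 5 became 3 in the gene body alone, within 3 kb of the gene, within 3 kb of the start, and in the authors' assignments within 3 kb, beside 18.4%, 20.8%, 17% and 16.6% of all protein-coding genes, and 1 with peaks overlapping the other library, beside 14.4%. Bcl11b was the gene in each count of 1. Peaks numbered 6 in place of 10 (500 EMPs) and 5 in place of 18 (15000 EMPs) within 3 kb of the start, 6 and 7 in the authors' assignments within 3 kb, and 5 (15000 EMPs) among those overlapping the other library. The covered length of 4445 bp became 2014 bp within 3 kb and 2498 bp within 10 kb of the start, and 20254 bp became 6414 bp within 3 kb of the start and 11280 bp in peaks overlapping the other library. The share of other lymphoid genes with a peak in the 15000-EMP library, 36.6%, was 21.1% with peaks overlapping the other library, while that of all protein-coding genes went from 25% to 14.4%. Each of these alternatives counts fewer bases or peaks, except the window of 25 kb, which counts more. No paired analysis was possible because each group had 1 library and no result came from a test. Without peak heights or read counts, a peak near the calling threshold could not be told from a strong one, and a gene without a peak is a gene without one at these depths and thresholds, not one shown to lack H3K27me3.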
